A study of Mus musculus with 6 samples.

Results

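Cytosolic ribosomal proteins are the protein part of the ribosomes that translate nuclear mRNAs. Their genes were taken by symbol (Rpl or Rps with a number, Rplp0, Rplp1, Rplp2 and Rpsa, without the Rps6k kinases and without symbols marked as pseudogenes), with 1 probe set for each. This gave 64 of 22180 measured genes, 40 of the large subunit and 24 of the small subunit. RefSeq (GRCm38.p6) lists 62 of the 64 as protein coding and Rpl6l and Rps4l as pseudogenes, which the symbols do not show. A further 20 protein-coding genes that match the rule had no probe set annotated to them alone and were not analysed here.

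The arrays (GeneChip Mouse Gene 2.0 ST) held RNA from macrophages grown from marrow of 3 C57BL/KaLwRij mice in M-CSF over 7 days. All cultures, controls included, received 5TGM1-luc cells, a mouse myeloma line carrying luciferase, for a night before treatment. The 3 antibody cultures then had 0.5 nM of an antibody to mouse CSF1R, the receptor for M-CSF, and the 3 control cultures had IgG, each for 3 days. The cultures were washed 4 times to remove myeloma cells before RNA was taken. The labels give neither the age or sex of the mice nor the dose of IgG. They do not tie an array to a mouse, so the p-values here speak to the spread among 3 arrays a group, which may be a technical one.

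A ribosome has a small subunit that reads the mRNA and a large subunit that joins amino acids, and each is built from ribosomal RNA and its own set of proteins. Many of these mRNAs begin with a C and a run of pyrimidines, the 5′ TOP motif, through which the kinase mTORC1 and the protein LARP1 control their translation and stability. In macrophages, as in other cells, growth factor signalling through mTORC1 and MYC is known to raise ribosome production.

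Of the 64 genes, 30 were lower with the CSF1R antibody and 0 were higher (limma, adjusted p under 0.05), where 16% of all genes were lower and 12.5% higher. The falls were small. Those called ran from 0.15 to 0.67 on the log2 scale, or 0.903 to 0.63 times the IgG level, and the median over all 64 was -0.21, beside -0.02 over all genes tested. The median SE of a member's difference was 0.06. In 46 of the 64, all 3 antibody arrays lay below all 3 IgG arrays, which was so for 22.7% of all genes. The opposite order was seen in 0 members and 16.6% of all genes. At an unadjusted p under 0.05, 43 members were lower and 0 higher, and the share of all genes at that threshold is not given here. Only Rpl10l had a mean above that of the IgG arrays, and it did not pass the test. In RNA from a whole culture, fewer cells of a kind and less RNA per cell cannot be told apart.

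The number called fell by more than 1.5 times without either of 2 arrays and under another scaling. Without antibody replicate 1, 18 members were lower, and without antibody replicate 2, 19 were. With cyclic loess, which aligns the arrays over the range of signal, 12 members were lower and 0 higher, with a median of -0.14, while 11.0% of all genes were lower and 15.0% higher. That scaling moved the median of all genes from -0.02 to 0.0042. Bright members moved by more, such as Rpl8 (-0.40 to -0.29) and Rps3 (-0.27 to -0.16), and the dim Rpl32l hardly moved (-0.31 to -0.32). The 12 members called after cyclic loess were Rpl3, Rpl5, Rpl8, Rpl13, Rpl17, Rpl27, Rpl32l, Rps7, Rps12, Rps14, Rps19 and Rps26. After cyclic loess, 58 of the 64 differences were below 0 and 6 above.

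The promoters of some members with larger and smaller differences are shown first, since a shared start of the mRNA is what joins these genes in the textbook account. Promoters from RefSeq (GRCm38.p6, 250 bases before to 50 after the annotated start) were held for 49 of the 64 genes. Below are the 6 called genes with the largest falls and the 2 uncalled genes with the smallest differences, among genes with a single entry and a signal above the background guide given further on. Each runs from 50 bases before to 30 after the start, 5′ to 3′, and capitals mark a C followed by at least 6 pyrimidines, lying within 30 bases of the start on either side.
Rpl5, chr5:107900478-107900557, plus strand: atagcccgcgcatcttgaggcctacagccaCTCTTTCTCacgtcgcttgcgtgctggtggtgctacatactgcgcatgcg
Rps26, chr10:128626477-128626556, minus strand: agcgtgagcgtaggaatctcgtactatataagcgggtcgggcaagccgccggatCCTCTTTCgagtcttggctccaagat
Rps7, chr12:28635924-28636003, minus strand: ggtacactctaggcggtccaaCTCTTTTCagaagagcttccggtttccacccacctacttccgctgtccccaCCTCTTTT
Rpl27, chr11:101442195-101442274, plus strand: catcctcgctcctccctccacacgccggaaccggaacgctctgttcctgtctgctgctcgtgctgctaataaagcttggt
Rpsa, chr9:120127716-120127795, plus strand: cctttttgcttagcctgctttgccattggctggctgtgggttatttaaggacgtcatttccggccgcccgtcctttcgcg
Rpl13, chr8:123102300-123102379, plus strand: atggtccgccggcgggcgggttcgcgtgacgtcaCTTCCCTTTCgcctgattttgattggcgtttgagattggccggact
Rpl27a, chr7:109519145-109519224, plus strand: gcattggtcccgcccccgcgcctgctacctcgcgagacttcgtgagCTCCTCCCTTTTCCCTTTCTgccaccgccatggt
Rps25, chr9:44407664-44407743, plus strand: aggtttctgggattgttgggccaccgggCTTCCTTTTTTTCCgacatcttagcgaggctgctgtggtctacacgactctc
The run was present in 4 of the 6 called genes printed and in both uncalled ones. Rpl17, Rpl34, Rps14, Rpl7, Rpl8 and Rpl3 are not printed, though each fell by more than Rps7, Rpl27, Rpsa and Rpl13. The signal of Rpl27a was near the background guide.

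Over the 49 genes, 32 held such a pyrimidine run on the transcribed strand in that window, or 65.3%, against 29.7% of 27025 genes with a promoter entry. The median difference was -0.21 in the 32 genes with the run and -0.22 in the 17 without it. Calls were made in 20 of the 32 and in 4 of the 17. The median SE was 0.05 with the run and 0.08 without, and the median log2 level with IgG was 9.30 and 8.22. Rpl10l, Rpl3l and Rps16, below the background guide, were among the genes without the run, and Rpl32l among those with it. The part of spread or level in the calls was not tested. The ETS-type motif CCGGAAG, searched on both strands of the 300 bases, lay in 22 genes (44.9%, against 9.93% of all). Of these 22, 12 were called lower, with a median of -0.20, and of the 27 without it 12 were, with a median of -0.22. Both the run and CCGGAAG were held by 18 genes. The E-box CACGTG, which MYC binds and which reads the same on both strands, was in 4 genes (8.16%, against 8.09% of all), and all 4 (Rpl14, Rpl19, Rpl34 and Rps19) were called lower, with a median of -0.26. Of the other 45, 20 were called, with a median of -0.21. After cyclic loess Rps19 was called, and Rpl14, Rpl19 and Rpl34 were not. TATAAA, on either strand, was in 5 genes (10.2%, against 15.7%). The palindrome TCGCGA was in 11 genes (22.4%, against 2.86%), Rps6, Rps19 and Rpl27a among them. Of these 11, 5 were called lower, with a median of -0.22, and of the other 38, 19 were, with a median of -0.20. These are matches of letters and not shown to be bound, and RefSeq starts need not be those used in these cells.

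**Figure D1:**
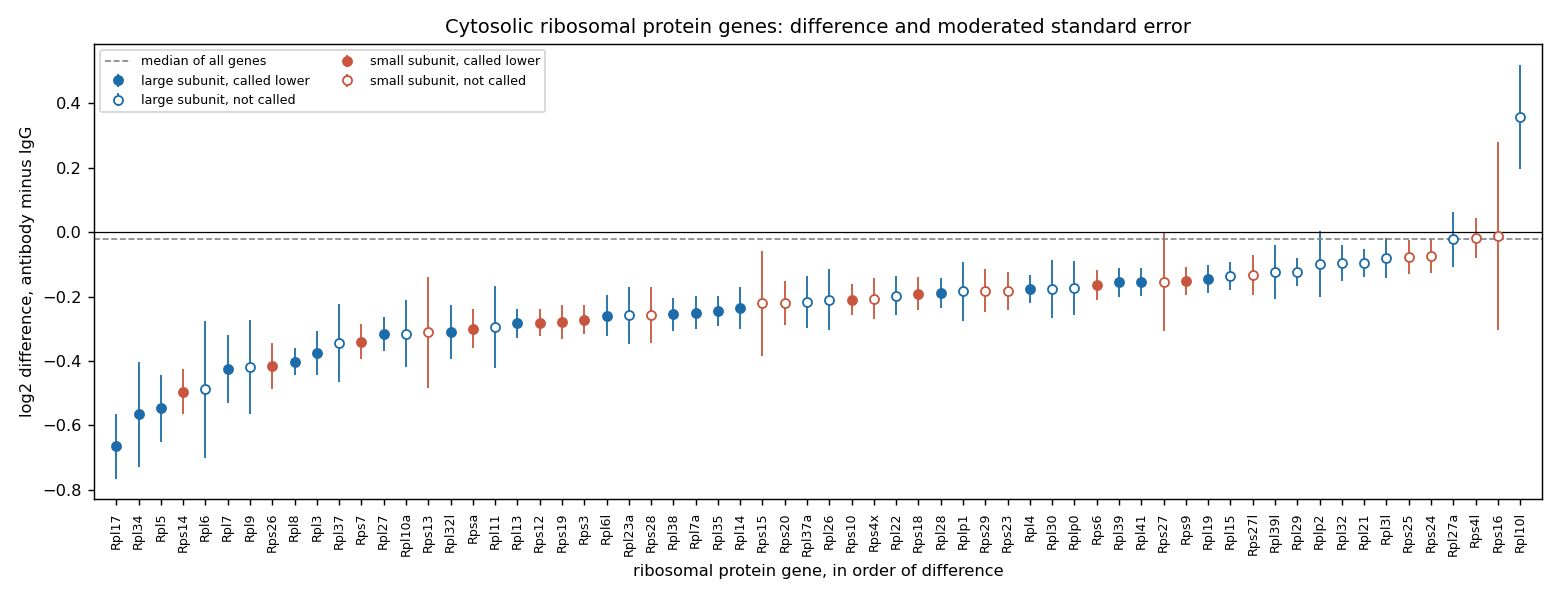
Log2 difference (antibody minus IgG, y axis) of each of the 64 genes in order of size (x axis), with limma's moderated standard error as bars, 3 arrays a group. Large subunit genes are blue, small subunit genes red, filled symbols are called lower, and the dashed line is the median of all genes. Only Rpl10l lies above 0, and Rpl17 is lowest at -0.67.

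Of the 40 large subunit genes, 19 were lower and 0 higher, and their median was -0.23. With antibody array 1 or 2 left out the count was 10 or 11, with IgG array 1 or 3 left out it was 12 or 11, and after cyclic loess it was 7. The share of all genes called lower was 12.8% to 13.5% with these arrays left out and 11.0% after cyclic loess. Rpl17, whose protein lines the tunnel through which the growing peptide leaves, fell most of all members. Its log2 values were 7.26, 7.24 and 7.27 on the antibody arrays and 7.74, 7.90 and 8.14 on the IgG arrays. The groups were far apart, at 7.26 ± 0.02 and 7.93 ± 0.20 (SD, n = 3), a fall of 0.67 (SE 0.10; limma adjusted p = 0.00296). Rpl34 stood at 8.11, 8.50 and 7.83 with the antibody and 8.77, 8.62 and 8.76 with IgG. It fell by 0.57 (SE 0.16; limma adjusted p = 0.0423), with the antibody arrays spread widely but all below the controls. Rpl6, at 6.17, 6.02 and 5.31 against 6.33, 6.29 and 6.35, also had all antibody arrays below, with the third far lower than the others. Its difference of -0.49 (SE 0.21) did not pass (limma adjusted p = 0.153).

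Rpl5 and Rpl11 form, with 5S RNA, the particle that completes the large subunit and that also binds the p53 regulator MDM2 when ribosome assembly fails. Rpl5 was at 6.74, 6.73 and 6.41 with the antibody and 7.27, 7.16 and 7.10 with IgG, a fall of 0.55 (SE 0.10; limma adjusted p = 0.0079). Rpl11 was at 5.72, 5.74 and 5.72 against 6.23, 5.72 and 6.11. Its second IgG array lay among the antibody arrays, and the difference of -0.30 (SE 0.13) did not pass (limma adjusted p = 0.154).

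Rpl3 and Rpl8 lie next to the centre where peptide bonds are formed. Rpl8 had the value 11.31 on all 3 antibody arrays and 11.73, 11.69 and 11.71 with IgG, a fall of 0.40 (SE 0.04) with the smallest adjusted p of the members (limma, 0.00063). Equal values on 3 arrays are not a measured spread of 0, and are taken up further on. Rpl3 was at 9.93, 9.84 and 10.06 against 10.27, 10.31 and 10.37, a fall of 0.38 (SE 0.07; limma adjusted p = 0.0065). Rpl7 was at 10.28, 10.25 and 10.35 against 10.66, 10.95 and 10.55, a fall of 0.43 (SE 0.11; limma adjusted p = 0.0236). For Rpl3, Rpl7 and Rpl8 alike, the groups did not overlap on these probe sets. A dimmer probe set of Rpl7 fell by less (-0.19, SE 0.10) and did not pass.

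At the tunnel and its outer port, where chaperones and the secretion machinery dock, 5 of 8 measured genes were lower and 0 higher, around a median of -0.20. Besides Rpl17 these were Rpl35 (-0.25, SE 0.05), Rpl4 (-0.18, SE 0.04), Rpl39 (-0.16, SE 0.05) and Rpl19 (-0.15, SE 0.04). Rpl23a (-0.26, SE 0.09), Rpl26 (-0.21, SE 0.09) and Rpl22 (-0.20, SE 0.06) did not pass. Most of these genes lay within a narrow range, from -0.15 to -0.26, with Rpl17 apart at -0.67. After cyclic loess 1 of the 8, Rpl17, was called, which is near the share of all genes called lower (11.0%).

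The stalk, which carries the acidic proteins that recruit elongation factors, had 0 of 3 measured genes called lower and 0 higher. The same 0 and 0 were found in limma at an unadjusted p under 0.05, with or without cyclic loess. Rplp0 was at 9.68, 9.69 and 9.70 with the antibody and 10.00, 9.69 and 9.91 with IgG. Rplp1 was at 12.34, 12.37 and 12.07 against 12.47, 12.37 and 12.49, and Rplp2 at 5.01, 5.26 and 5.15 against 5.22, 5.41 and 5.09. All 3 overlapped between groups, with differences of -0.17 (SE 0.08), -0.18 (SE 0.09) and -0.10 (SE 0.10). Those values lie near the median of all members, and misses of the threshold do not show that the stalk genes were steady. Second probe sets of 2 of them gave larger values: Rplp0 at 6.73 against 7.12, a fall of 0.38 (SE 0.08; limma adjusted p over all probe sets = 0.0141), and Rplp1 at 7.38 against 7.75, a fall of 0.37 (SE 0.09; limma adjusted p = 0.0263).

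Of the 24 small subunit genes, 11 were lower and 0 higher, and their median was -0.21. The count was 8 to 11 with an array left out and 5 after cyclic loess, where 12.8% to 15.4% and 11.0% of all genes were lower. Whether the subunits differed was not tested. Rps14, which sits on the platform where mRNA leaves and is lost in the 5q- form of myelodysplasia in humans, fell most. It was at 6.46, 6.52 and 6.32 with the antibody and 6.96, 6.85 and 6.99 with IgG, a fall of 0.50 (SE 0.07; limma adjusted p = 0.00225). Rps26, which touches the mRNA just ahead of the start codon, was at 12.07, 12.08 and 11.88 against 12.36, 12.51 and 12.41. It fell by 0.42 (SE 0.07; limma adjusted p = 0.00553). In both genes the antibody arrays lay wholly below.

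Of 6 measured genes along the path of the mRNA, 5 fell and 0 rose, with a median of -0.29, and 2 were called after cyclic loess. Rpsa, also known as a laminin receptor, was at 11.58, 11.64 and 11.63 against 11.86, 12.02 and 11.86, a fall of 0.30 (SE 0.06). Rps3, at the mRNA entry and also described as a partner of NF-kB, was at 10.79 on each antibody array and at 11.10, 11.04 and 11.03 with IgG, a fall of 0.27 (SE 0.04). Rps9, also at the entry, fell by 0.15 (SE 0.04). Rps23, at the decoding site, stood 0.18 lower without passing (6.71 against 6.89; limma adjusted p = 0.0665).

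Rps6, the small subunit protein phosphorylated by the S6 kinases downstream of mTORC1, was at 12.27, 12.29 and 12.36 with the antibody. With IgG it was at 12.46, 12.49 and 12.48. The groups were apart by a small step, 12.31 ± 0.05 against 12.47 ± 0.02 (SD, n = 3; SE of the difference 0.05; limma adjusted p = 0.0392). In the head of the small subunit, 5 of 11 measured genes fell and 0 rose, and the median was -0.22. These were Rps12 (-0.28, SE 0.04), Rps19 (-0.28, SE 0.05), Rps3, Rps10 (-0.21, SE 0.05) and Rps18 (-0.19, SE 0.05). Rps12 and Rps19 were called after cyclic loess too.

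**Figure D2:**
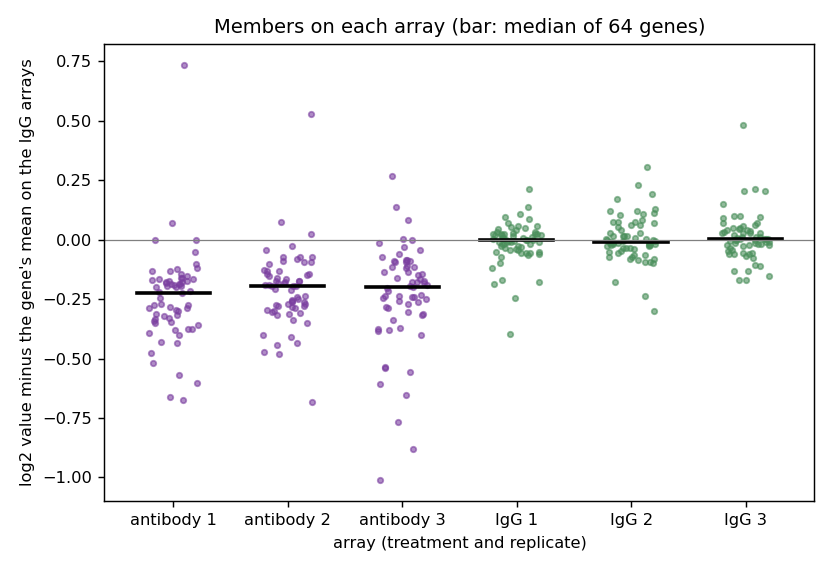
Each point is 1 of the 64 genes on 1 array (x axis), as its log2 value minus its own mean on the 3 IgG arrays (y axis), and the bars are medians. The medians are -0.22, -0.20 and -0.20 on the antibody arrays and within 0.01 of 0 on the IgG arrays.

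Each antibody array showed the shift. The median of the 64 genes, each set against its own IgG mean, was -0.22, -0.20 and -0.20 on antibody arrays 1, 2 and 3, and 60, 61 and 60 of the genes lay below that mean. The lowest of the 6 values was on an antibody array for 62 genes, and the highest was on an IgG array for 58. Shares of all genes for these counts are not given here. The difference between group means was below 0 in 63 of the 64 members and in 12250 of all 22180 genes. Summed over the 64 genes, log2 values ran from 564.7 to 567.1 with the antibody and from 579.7 to 581.2 with IgG.

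Some ribosomal protein genes are mutated in Diamond-Blackfan anaemia, an inherited failure of red cell production. Of a list of 20 such genes, 15 were measured. Of these 15, 7 fell and 0 rose, with a median of -0.26. After cyclic loess 5 were called. The 7 were Rpl5, Rpl27 (-0.32, SE 0.05), Rpl35, Rps7 (-0.34, SE 0.05), Rps10, Rps19 and Rps26. Rps19, the gene most often affected, was at 9.85 ± 0.07 against 10.13 ± 0.03 (SD, n = 3; limma adjusted p = 0.00793). Rps24 was at 9.76, 9.79 and 9.88 against 9.86, 9.90 and 9.89, overlapping, with a difference of -0.07 (SE 0.05).

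Several ribosomal protein genes have second copies, some of them used mainly in testis or muscle. Of a list of such copies, 7 were measured, and 1 of them, Rpl7l1, was lower. Outside that list Rpl6l and Rpl32l, whose symbols also mark a copy, were both called lower. Rpl6l, a pseudogene in RefSeq, was at 10.80, 10.89 and 10.97 with the antibody and 11.07, 11.21 and 11.16 with IgG, a fall of 0.26 (SE 0.06; limma adjusted p = 0.023) with no overlap. As a guide to background, 1390 olfactory and vomeronasal receptor genes had a 95th percentile of 4.92, a guide chosen with the data known. The means of Rpl10l, Rpl3l, Rpl32l and Rps16 lay below it in both groups. Rpl10l, the copy used in sperm formation, was at 3.60, 2.93 and 3.13 with the antibody and 2.81, 2.93 and 2.84 with IgG, an overlap on array 2 (limma adjusted p = 0.17). Rpl3l, the copy of striated muscle, was at 4.27, 4.07 and 4.22 against 4.27 on each IgG array, and the values met at 4.27. Rpl32l was at 2.44, 2.57 and 2.50 against 2.64, 2.88 and 2.91, a fall of 0.31 (SE 0.08; limma adjusted p = 0.0337) at a level where signal is uncertain. Rpl32 was at 11.47, 11.60 and 11.57 against 11.66, 11.58 and 11.67, overlapping, and did not pass.

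Rpl39l, the testis copy of Rpl39, was at 5.25, 5.12 and 5.01 against 5.20, 5.37 and 5.18. Rpl39 itself was at 5.23, 5.28 and 5.29 against 5.41, 5.40 and 5.45, a fall of 0.16 (SE 0.05). Rps27l, a p53-inducible copy of Rps27, was at 8.29, 8.30 and 8.36 against 8.56, 8.39 and 8.40. Its groups did not overlap, yet the difference of -0.13 (SE 0.06) did not pass. Rps27 was at 6.83, 7.32 and 7.43 against 7.40, 7.35 and 7.29, with antibody array 1 far below the rest. Rps4l, a pseudogene in RefSeq, was at 6.11, 5.94 and 6.01 against 6.03, 6.10 and 5.98, overlapping. Rps4x was at 11.00, 10.95 and 11.15 against 11.23, 11.23 and 11.27, wholly lower by 0.21 (SE 0.06) without passing (limma adjusted p = 0.0551). Of copies whose symbols fall outside the rule, Rpl7l1, a nucleolar relative of Rpl7, fell by 0.34 (SE 0.08), and Rpl22l1 did not pass (3.06 against 3.18). Rpl22 had 6.81 on each antibody array and 7.00, 6.91 and 7.10 with IgG, with no overlap, and did not pass (limma adjusted p = 0.0525).

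The members with the smallest differences were Rps16, Rps4l, Rpl27a and Rps24. Rps16 was at 4.43, 5.14 and 4.22 against 4.36, 4.37 and 5.09, a scatter far wider than its difference of -0.01 (SE 0.29). Rpl27a was at 5.06, 4.96 and 5.25 against 5.14, 5.03 and 5.17 (-0.02, SE 0.09). For both, signal was near the background guide, so these values do not show whether the genes changed. For Rps24, other probe sets differed by -0.25 (SE 0.10) and by 0.06 (SE 0.09), and neither passed, so its small difference belongs to the probe set used.

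Of the 64 genes, 24 had more than 1 probe set annotated to them alone. Among 104 probe sets in all, 7 repeated the values of another of the same gene. The 33 others that were not used above, for 23 genes, had a median difference of -0.25. Of these, 31 were below 0 and 2 above, and 14 were called lower and 0 higher when all probe sets were tested. In 20 of the 33, the level lay more than 3 log2 units below the probe set used. Rpl13, for example, had 1 probe set at 11.55 against 11.83 and another at 7.75 against 8.03, with differences of -0.28 and -0.28. Rpl3 was split: a further probe set fell by 0.65 (SE 0.05), and the dimmest, at 3.80 against 3.76, did not. Falls on a dimmer probe set were larger for Rplp0 and Rplp1, as given above. They were smaller for Rpl7 (-0.19, and -0.43 on the probe set used), Rpl4 (-0.05 and -0.18) and Rpl9 (-0.14 and -0.42). Ribosomal protein genes have many processed pseudogenes, so a probe set can take up RNA of a near-identical copy, and values of single members are uncertain to that extent.

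Exactly equal values, with no tolerance on log2 values at 6 decimals, were found on the 3 antibody arrays for Rpl8, Rpl22, Rps12 and Rps23. That is 6.25% of members, and 2.43% of all genes. At least 2 of the 3 antibody values were equal in 13 members (20.3%; 17.8% of all genes) and at least 2 of the 3 IgG values in 1 (1.56%; 10.9% of all genes). Such ties lower the spread that limma sees. Among the 50 members with 6 distinct values within their groups, 20 were lower and the median was -0.22, and among the other 14, 10 were lower and the median was -0.19. The part of ties in the calls was not tested.

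**Figure D3:**
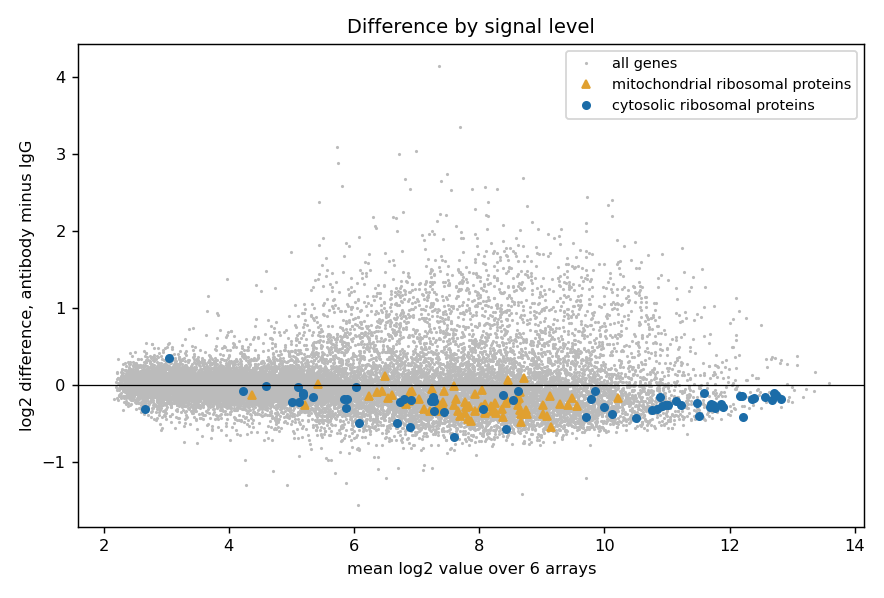
Mean log2 value over the 6 arrays (x axis) and log2 difference, antibody minus IgG (y axis), for all 22180 genes (grey), 71 mitochondrial ribosomal protein genes (triangles) and the 64 cytosolic ones (circles). All 64 but Rpl10l are below 0, at low and at high signal.

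Many members were among the brightest genes, and bright genes were often called, more of them lower than higher. Of the 64, 33 had a mean at or above the 90th percentile of all genes. In these 33 the median difference was -0.25, with 21 lower and 0 higher, and in the other 31 it was -0.20, with 9 lower. Over all 2218 genes at that level the median was -0.09, with 836 lower (37.7%) and 596 higher. When those 2218 were tested alone, 30 of the 33 members were lower and 0 higher, where 48.4% of the genes were lower and 30.7% higher. In the brighter 11090 genes tested alone, 40 of 54 members were lower and 0 higher, where 36.4% of the genes were lower and 25.4% higher. Across the 64 members, level and difference had Pearson's r = -0.161 and Spearman's rho = -0.0827, as a description over genes on shared arrays.

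**Figure D4:**
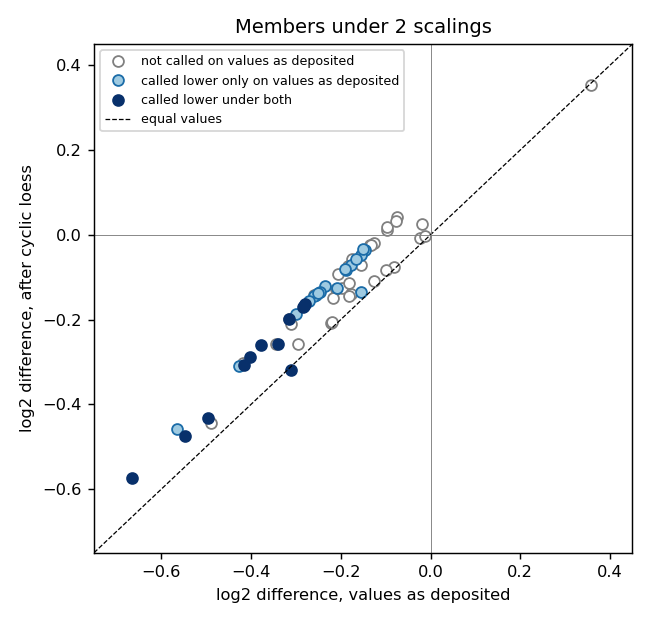
Log2 difference of each of the 64 genes on the values as deposited (x axis) and after cyclic loess (y axis), with the line of equal values dashed. Most points lie above the line, the 12 genes called under both scalings are dark, and 58 of the 64 remain below 0.

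Other genes of translation were lower on the same arrays, and fewer were after cyclic loess. Among mitochondrial ribosomal proteins, which build a separate ribosome for the genes of mitochondria, 42 of 71 were lower and 0 higher, and their median was -0.25. After cyclic loess 23 were lower and 1 higher. Whether they differed from the cytosolic set was not tested. Of translation initiation factors, 12 of 15 fell and 0 rose (8 and 0 after cyclic loess), and the median was -0.30. The largest fall was that of Eif2s2 (-0.49, SE 0.07), a subunit of the factor that brings the first tRNA. Next was Eif2b3 (-0.48, SE 0.06), a subunit of the guanine nucleotide exchange factor that acts on that initiation factor. Eif4e, which binds the mRNA cap, fell by 0.40 (SE 0.06).

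Of 9 chaperones and importers of ribosomal proteins, 7 were lower and 0 higher (6 and 0 after cyclic loess), with -0.39 as their median. The largest falls were those of Grwd1 (-0.49, SE 0.07), the escort of Rpl3, the importin Ipo4 (-0.45, SE 0.07), Tsr2 (-0.43, SE 0.07), the escort of Rps26, and Heatr3 (-0.42, SE 0.05), the importer of Rpl5. Bccip (-0.13, SE 0.07) and the importin Ipo5 (-0.12, SE 0.05) did not pass. Ribosomal proteins with other names also fell. Rps3a1 did so by 0.53 (SE 0.06), and Fau, which encodes a small subunit protein fused to a ubiquitin-like one, by 0.16 (SE 0.05), the latter not called after cyclic loess.

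Among 16 other genes whose mRNAs carry a 5′ TOP motif, 9 fell and 1 rose (5 and 2 after cyclic loess), and the median was -0.22. The elongation factor genes Eef1d (-0.49, SE 0.05) and Eef1g (-0.46, SE 0.07) fell. Tpt1, for the tumour protein TCTP, rose by 0.21 (SE 0.05). Eef1a1, for an abundant elongation factor, did not pass (12.98 against 13.01; limma adjusted p = 0.801). Of 11 genes of the mTORC1 pathway, 5 were lower and 0 higher, with -0.16 as their median, where 16% of all genes were lower. After cyclic loess 1 of the 11 was called lower, which is near the share of all genes (11.0%). The gene called was Larp1, the binder of TOP mRNAs, which fell by 0.31 (SE 0.04) on the deposited values. Rheb, the activator of mTORC1, fell by 0.29 (SE 0.05) and was not called after cyclic loess (limma adjusted p = 0.0501).

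A chosen list of 12 measured genes outside the ribosome, of the cytoskeleton, glycolysis and iron storage, is given for comparison. Of these, 0 fell and 3 rose in limma (0 and 6 after cyclic loess), and their median was 0.10. At an unadjusted p under 0.05, 1 was lower and 5 higher. The list does not stand for bright genes at large, of which 37.7% were lower, and Tmsb10 (5.64 against 5.31) and Tuba1b (6.65 against 6.71) were not bright on these arrays. Fth1, a ferritin chain, rose by 0.28 (SE 0.04) and Tmsb4x, an actin-binding peptide gene, by 0.45 (SE 0.05). Gapdh, a glycolytic enzyme gene, was at 12.93 against 12.91. Tpt1, Eef1a1, Bccip, Ipo5, Gapdh, Tmsb10 and Tuba1b were chosen to be named after their values were seen.

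**Figure D5:**
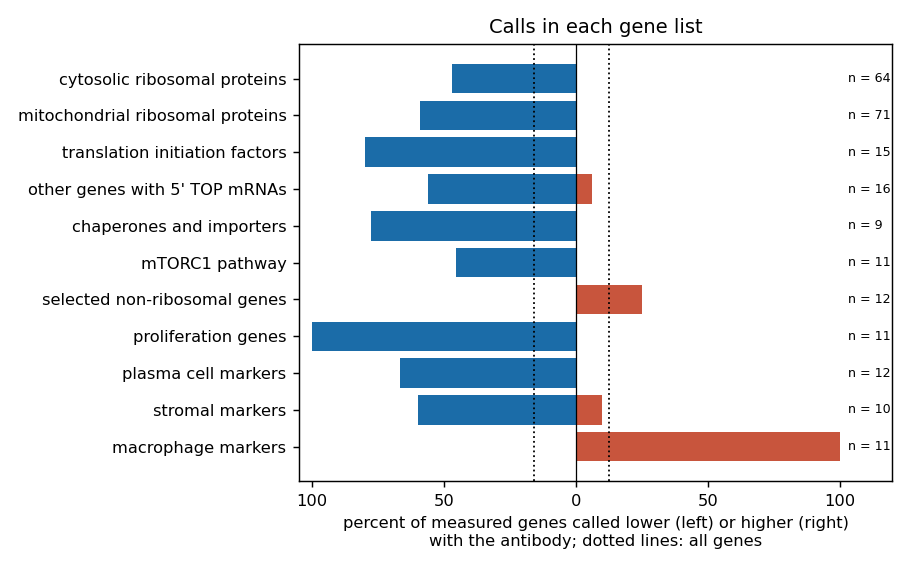
Share of measured genes called lower (left, blue) or higher (right, red) with the antibody in each list (y axis), in percent of the number given at the right. The lists of translation genes lie mainly to the left, as do the plasma cell and stromal markers, and the proliferation genes lie wholly to the left. The macrophage markers lie wholly to the right. Dotted lines are the shares of all genes, 16% lower and 12.5% higher.

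Markers of more than 1 kind of cell were measured on the arrays, and markers of each kind moved. All 11 measured macrophage markers were above the background guide in both groups and all 11 rose, with summed log2 values of 118.6 to 119.4 with the antibody and 105.8 to 106.3 with IgG. Of 12 plasma cell markers, 8 fell and 0 rose, with sums of 105.2 to 106.0 against 109.5 to 110.1. Ighm was at 12.74 against 12.88, a high signal for an antibody gene after the washes, while Tnfrsf17 was below the guide in both groups. Stromal markers fell in 6 of 10 cases and rose in 1, with sums of 58.8 to 59.4 against 63.1 to 63.7 and with Lum and Dcn below the guide and Dcn the gene that rose. All 11 measured proliferation genes fell, with a median of -0.54 and sums of 102.8 to 104.0 against 108.9 to 109.4. The part of these markers in the falls of ribosomal protein genes was not tested.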

How the data were processed

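The authors deposited 1 linear intensity per probe set and array. The submitters' processing notes name RMA and limma, without version or role. RMA as usually run makes arrays alike in distribution and tends to understate fold changes. The build behind the probe annotation was not given in the sources used here, nor was the level of probe summary. Intensities were taken as log2. Of 41345 probe sets, 23521 had 1 gene symbol in the platform annotation, which can be old, 1814 had several and 16010 none, and the last 2 kinds were not used. Each gene is represented by its brightest probe set over the 6 arrays, with no filter on signal. Over all probe sets, arrays correlated at 0.992 to 0.993 within groups and 0.984 to 0.985 between them. The test was limma's (version 3.58.1, R 4.3.3; lmFit and eBayes, two-sided, 4 residual degrees of freedom). P-values were adjusted by Benjamini-Hochberg across 22180 genes and called under 0.05. The test was tried on simulated data. The number of arrays, 3 a group, limits the precision, and SE means the moderated standard error.

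Members and gene lists were chosen with earlier results of these data known. Values on every array are given for the 8 called members with the largest differences, the 4 with the smallest, the stalk, 5S-binding, Rps3, Rps6 and Rpsa genes, and second copies and their partners that are members. Other members are given by counts and ranges, with up to 4 more per list, and other genes by up to 4 of the largest differences past the test in a list, with the exceptions named in the text. Settings tried besides were a variance trend on intensity, robust variances, weights on arrays, median centring, cyclic loess, and filters on signal (50th and 90th percentile). Others were the mean or the dimmest probe set of a gene, log2(value + 16), the replicate number as a block, and each array left out in turn. Promoters came from RefSeq, GRCm38.p6. Figures used matplotlib 3.10.9 in Python 3.11.15.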

Additional observations from a re-analysis of the deposited data

How the results depend on the processing

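Under each of 17 alternatives 0 members were called higher. Cyclic loess left 12 members lower, with a median of -0.14. Leaving out 1 array gave 18 to 28 lower, 0 higher and medians of -0.23 to -0.19, while 12.8% to 15.4% of all genes were lower. The other 10 alternatives gave 20 to 40 lower and medians of -0.25 to -0.19. Under these, from 13.4% (replicate block) to 48.4% (90th percentile filter) of the genes tested were lower. Of the 30 called members, 7 were called under every alternative that tested them (Rpl5, Rpl8, Rpl17, Rps7, Rps12, Rps14 and Rps19), and 18 of the 34 others passed under at least 1. Whether replicate numbers pair the samples is not known from the labels. Correlations of same-numbered deviations were 0.0313, -0.0529 and 0.003, and those of other pairs ran from -0.0692 to 0.0674. Such values cannot decide it, since cultures of 1 mouse need not deviate alike. With the replicate number as a block, 20 members were lower, 19 of them among the 30, and 0 higher, where 13.4% of all genes were lower and 11.6% higher. The sign turned, with no value called, for Rpl21 (0.0106), Rpl32 (0.0178), Rps24 (0.043), Rps25 (0.0332) and Rps4l (0.0243) with cyclic loess, and for Rpl3 (0.043) and Rps24 (0.0617) with the dimmest probe set. It turned for Rps16 with array weights (0.0615), and with arrays left out for Rps16 (-0.2821 to 0.2298), Rps27 (-0.2734 to 0.0289), Rps4l (-0.0619 to 0.0194) and Rpl27a (-0.1036 to 0.0427). The cause was not tested.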
